A study of Schizosaccharomyces pombe with 4 samples.

Results

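Histones package DNA into nucleosomes, each built on H2A, H2B, H3 and H4, and large amounts of new histone are needed when a cell copies its chromosomes. In the fission yeast *Schizosaccharomyces pombe*, the core histones are encoded by small gene families, most of them arranged as divergent pairs that share an upstream region. The genes of a family differ in sequence but encode the same or nearly the same protein, and their transcription is known to depend on a repeated AACCCT element bound by the GATA-type factor Ams2. *pht1* encodes the variant H2A.Z, which replaces H2A in a subset of nucleosomes.

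The 10 histone genes were taken by name from the 5129 protein-coding genes of the NET-Seq table: *hta1* and *hta2* (H2A), *htb1* (H2B), *hht1*, *hht2* and *hht3* (H3), *hhf1*, *hhf2* and *hhf3* (H4) and *pht1* (H2A.Z). NET-Seq isolates tagged RNA polymerase II and sequences the nascent RNA held by it (IP), next to the total RNA of the same cells before the isolation (input). There were 2 IP libraries and 2 input libraries, from 2 biological replicates of YAM2507, an *exo2*Δ strain in which the Rpb3 subunit of the polymerase carries a Flag tag. *exo2* encodes the cytoplasmic 5′ to 3′ exoribonuclease, whose loss stabilizes the antisense RNAs called XUTs. All 4 libraries therefore lack Exo2 and carry the tag, and no *exo2*+ cells were analysed here.

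Features other than coding sequences held 3338808 and 6962801 reads in the IP libraries, against 10172688 and 9114952 in the input libraries. tRNA genes took 7.18% and 6.80% of the IP and 73.9% and 75.0% of the input, and the median protein-coding gene was left with 172 and 356 reads in the IP, against 102 and 78 in the input. The density used below is the normalized number of reads per nucleotide (nt) of the annotated gene, as deposited. Within the *exo2* coding exon, 44 and 86 reads were counted in the IP and 26 and 23 in the input, at densities of 0.0113 and 0.0104 in the IP and 0.00212 and 0.0021 in the input. In the rest of the *exo2* gene the densities were 0.159 and 0.143 in the IP, against 0.0206 and 0.0242 in the input. The coding exon thus lay far below the rest of the gene in all 4 libraries.

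Because only uniquely mapped reads were counted, what can be read for a histone gene depends on how far its copies differ. The H3 copies have coding sequences of 411 nt each. Between *hht2* and *hht1* 46 positions differed (88.8% identity), between *hht3* and *hht1* 30 (92.7%) and between *hht3* and *hht2* 48 (88.3%), and 0 codons encoded a different residue. The stretch around the longest run shared by *hht1* and *hht3*, 47 nt, shows how close these copies are. It covers coding positions 199 to 270, with the bases at which the copies are not all the same in capitals (RefSeq sequence of *S. pombe*, 5′ to 3′ on the coding strand):
hht1: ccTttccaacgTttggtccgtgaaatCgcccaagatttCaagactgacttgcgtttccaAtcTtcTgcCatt
hht2: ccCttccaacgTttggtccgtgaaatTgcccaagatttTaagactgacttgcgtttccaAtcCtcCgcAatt
hht3: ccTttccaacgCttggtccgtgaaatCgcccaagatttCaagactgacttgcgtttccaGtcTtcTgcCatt
Of these 72 positions 8 carry capitals. They lie at chrI:4700027-4700098 on the plus strand for *hht1*, at chrII:1365356-1365427 on the plus strand for *hht2* and at chrII:3529260-3529331 on the minus strand for *hht3*.

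Nearer to the start codon, *hht1* is instead closest to *hht2*, with which it shares a run of 44 nt. Coding positions 19 to 84 are shown for this contrast, again with the differing bases in capitals:
hht1: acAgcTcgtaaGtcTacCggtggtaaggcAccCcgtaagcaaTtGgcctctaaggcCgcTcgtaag
hht2: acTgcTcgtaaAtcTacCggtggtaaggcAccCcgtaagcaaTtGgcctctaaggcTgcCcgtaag
hht3: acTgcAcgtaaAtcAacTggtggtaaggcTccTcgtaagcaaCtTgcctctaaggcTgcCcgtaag
These 66 positions hold 11 that differ between the copies, most of them with *hht3* set against the other genes. The positions are chrI:4699847-4699912 (plus) for *hht1*, chrII:1365176-1365241 (plus) for *hht2* and chrII:3529446-3529511 (minus) for *hht3*.

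The H4 copies have coding sequences of 312 nt. Between *hhf2* and *hhf1* 27 positions differed, between *hhf3* and *hhf1* 21 and between *hhf3* and *hhf2* 27, and again 0 codons changed the residue. The last 84 coding positions, 229 to 312 with the stop codon, are shown because *hhf2* and *hhf3* share their final 54 nt, a run longer than the 50-nt reads:
hhf1: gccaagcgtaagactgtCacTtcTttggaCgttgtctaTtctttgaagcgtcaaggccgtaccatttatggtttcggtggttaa
hhf2: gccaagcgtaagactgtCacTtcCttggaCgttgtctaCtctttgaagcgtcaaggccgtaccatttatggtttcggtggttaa
hhf3: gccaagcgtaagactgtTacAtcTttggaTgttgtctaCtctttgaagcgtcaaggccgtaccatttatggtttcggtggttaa
A single base distinguishes *hhf1* from *hhf2* and *hhf3* over this run, and after it 45 nt are the same in all 3 genes. The stretches lie at chrI:4699085-4699168 (minus) for *hhf1*, chrII:1364512-1364595 (minus) for *hhf2* and chrII:3529995-3530078 (plus) for *hhf3*.

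The H2A copies differ in length, with coding sequences of 399 nt for *hta1* and 396 nt for *hta2*, and their longest shared run is 41 nt. It is shown with its flanks (coding positions 109 to 174 in both genes), where 4 positions differ:
hta1: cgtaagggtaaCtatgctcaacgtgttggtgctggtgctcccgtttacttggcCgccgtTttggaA
hta2: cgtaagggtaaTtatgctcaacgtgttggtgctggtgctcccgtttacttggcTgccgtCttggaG
They lie at chrIII:1411749-1411814 (minus) for *hta1* and chrI:4053074-4053139 (minus) for *hta2*. *htb1* and *pht1* have no such partner.

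The reads are 50 nt long and the study's mapping allowed up to 2 mismatches. The uniqueness of every 50-nt window that begins in a gene was therefore computed at both stringencies. The study removed adapter sequence before mapping, so the mapped stretches may be shorter than 50 nt. With no mismatch, all 50-nt windows were unique in every histone gene apart from *hhf2* and *hhf3*, whose coding parts were unique over 98.1% of their positions. With up to 2 mismatches, the unique share of the coding sequence was 47.9% in *hht1*, 86.4% in *hht2* and 58.9% in *hht3*. It was 82.7% in *hhf1*, 73.1% in *hhf2* and 77.6% in *hhf3*. In *hta1* and *hta2* it was 92.7% in both, and in *htb1* and *pht1* it was 100%. Every window without a unique match had its other match in a copy of the same histone. For *hht1* these were *hht3* at 169 windows and *hht2* at 56. Outside the coding sequence 100% of the 50-nt windows were unique in all 10 genes, so there copies can be told apart by 50 nt at every position. In 25-nt windows with up to 2 mismatches, the unique coding share was 16.1% in *hht1*, 39.7% in *hht2* and 23.8% in *hht3*. It was 14.1% in *hhf1*, 30.4% in *hhf2* and 23.1% in *hhf3*. In *hta1* it was 72.9% and in *hta2* 72.7%, with *htb1* and *pht1* at 100%. With no mismatch, the share ran from 76.2% (*hht1*) to 91.5% (*hta1*) in the H2A, H3 and H4 genes. Outside the coding sequence, the lowest share with up to 2 mismatches was 98.3%, in *hhf2*. Of 5108 other genes, 95.5% had only unique 50-nt windows with no mismatch allowed. How the mapping program scored windows with a near match is not given in the sources used here.

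**Figure D1:**
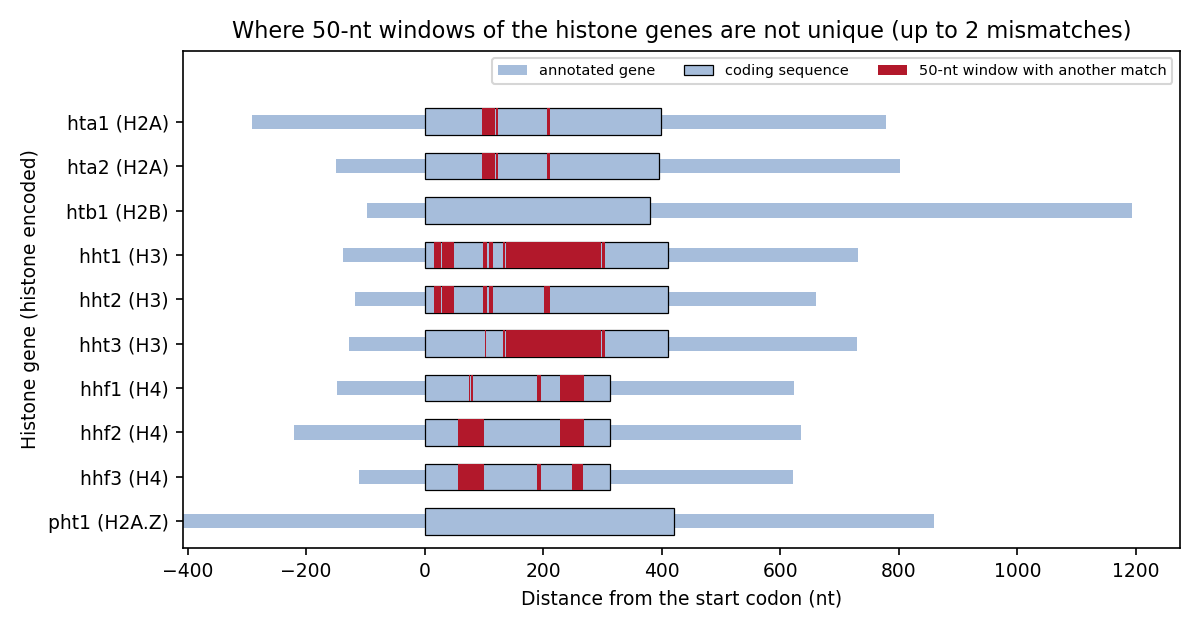
Each bar is an annotated histone gene, drawn by distance from its start codon in nt, with the coding sequence as the taller outlined box. Red marks the positions at which a 50-nt window has another match in the genome with up to 2 mismatches: they lie within the coding sequences, they fill the most of *hht1* (47.9% unique) and *hht3* (58.9% unique), and they are absent from *htb1* and *pht1*.

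The upstream regions are described next, because they are shared by the pairs. The known element AACCCT was searched on both strands from 250 nt before to 50 nt after each gene start of the table. Of the 8 histone genes other than *hta1* and *htb1*, 7 had it in their window, as did 485 of 5117 windows of all genes (9.48%). In each of the 7 genes it occurred as an immediate repeat, AACCCTAACCCT, which was present in 18 of the 5117 windows (0.352%). Since paired genes share a window, the 7 genes hold 4 such sites. They are shown with 9 nt on each side and the repeat in capitals, on the strand that reads AACCCT (RefSeq sequence):
hta2: atccatcaaAACCCTAACCCTgtatattgc
hhf1 and hht1: ctgcatcaaAACCCTAACCCTgcttttgat
hhf2 and hht2: gtcaatcacAACCCTAACCCTgatttaaga
hht3 and hhf3: tttgatcacAACCCTAACCCTttaattaaa
Upstream of the repeat the letters atca, and the t beside the outermost letter shown, are also the same in all 4 sites. The sites lie at chrI:4053362-4053391 (minus), chrI:4699643-4699672 (plus), chrII:1365051-1365080 (minus) and chrII:3529618-3529647 (plus), in the order shown. The search found no match in the window of *pht1*.

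The distance between the paired genes differed. In the table, 172 nt separate the starts of *htb1* and *hta1* and 146 nt those of *hht1* and *hhf1*, whereas *hht2* and *hhf2* share 3 nt and *hhf3* and *hht3* share 1 nt. By these starts the repeat lies inside the annotated 5′ end of *hht2*, *hht3* and *hta2*. The RefSeq annotation places the start of all 10 genes elsewhere, downstream of the start in the table for 8 of them, with the same gene ends. With the RefSeq starts the repeat lies upstream of each of the 7 genes, by 48 nt in *hht2*, 62 nt in *hht3* and 53 nt in *hta2*. The densities below use the longer or shorter genes of the table as deposited.

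Transcription of the core histone genes was high. The H2A gene *hta1* had 1626 and 3491 reads in the IP, against 1001 and 806 in the input, or densities of 1.52 and 1.54 against 0.297 and 0.268. The other H2A gene, *hta2*, had 1042 and 2264 reads in the IP, against 769 and 580 in the input, at densities of 1.09 and 1.13 against 0.257 and 0.217. *htb1*, the only H2B gene, had 2688 and 5549 reads in the IP, against 1640 and 1245 in the input, at densities of 2.08 and 2.04 against 0.404 and 0.344. *htb1* was thus the highest of these in every library, and *hta2* the lowest. In a bulk culture, more RNA per cell and a larger share of cells that express a gene cannot be told apart.

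Among the H3 genes, *hht2* stood highest, with 1591 and 3998 reads in the IP, against 1108 and 948 in the input, and densities of 2.05 and 2.44 against 0.453 and 0.435. *hht1* had 774 and 1691 reads in the IP, against 711 and 495 in the input, at densities of 0.890 and 0.921 against 0.260 and 0.203. *hht3* had 442 and 813 reads in the IP, against 292 and 214 in the input, at densities of 0.515 and 0.449 against 0.108 and 0.0889. The order *hht2*, *hht1*, *hht3* held in all 4 libraries, and the ranges of the 3 genes did not overlap within the IP or within the input.

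The H4 genes spanned a smaller range. *hhf1* had 903 and 2144 reads in the IP, against 532 and 460 in the input, at densities of 1.17 and 1.32 against 0.219 and 0.213. *hhf2* had 760 and 1734 reads in the IP, against 506 and 459 in the input, at densities of 0.889 and 0.961 against 0.188 and 0.191. *hhf3* had 313 and 618 reads in the IP, against 327 and 257 in the input, at densities of 0.428 and 0.400 against 0.142 and 0.125. The order *hhf1*, *hhf2*, *hhf3* also held in all 4 libraries. The H2A.Z gene *pht1* was the lowest of the 10 everywhere, with 218 and 494 reads in the IP, against 155 and 125 in the input, and densities of 0.172 and 0.185 against 0.0390 and 0.0352. Its count of 125 has an exact Poisson interval (95%) of 104 to 149 reads, which covers counting error only.

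By mean density, *hht2* ranked 33 of the 5129 genes in the IP, *htb1* 39, *hta1* 67, *hhf1* 97, *hta2* 113, *hhf2* 158, *hht1* 165, *hht3* 323, *hhf3* 380 and *pht1* 1042. In the input, the ranks were 89 for *hht2*, 116 for *htb1*, 163 for *hta1*, 191 for *hta2*, 196 for *hht1*, 211 for *hhf1*, 239 for *hhf2*, 310 for *hhf3*, 400 for *hht3* and 1024 for *pht1*. Relative to the median protein-coding gene, the core genes were between 4.86-fold (*hhf3*) and 26.2-fold (*hht2*) higher in the IP, and between 6.51-fold (*hht3*) and 29.4-fold (*hht2*) higher in the input. In the order of IP densities, *hhf2* at 0.925 ± 0.0511 and *hht1* at 0.905 ± 0.0223 (SD, n = 2) did not differ beyond their spread, and neither did *hht2* at 2.24 ± 0.276 and *htb1* at 2.06 ± 0.0319. In the input, *hta2* at 0.237 ± 0.0281, *hht1* at 0.231 ± 0.0404 and *hhf1* at 0.216 ± 0.00479 overlapped as well.

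**Figure D2:**
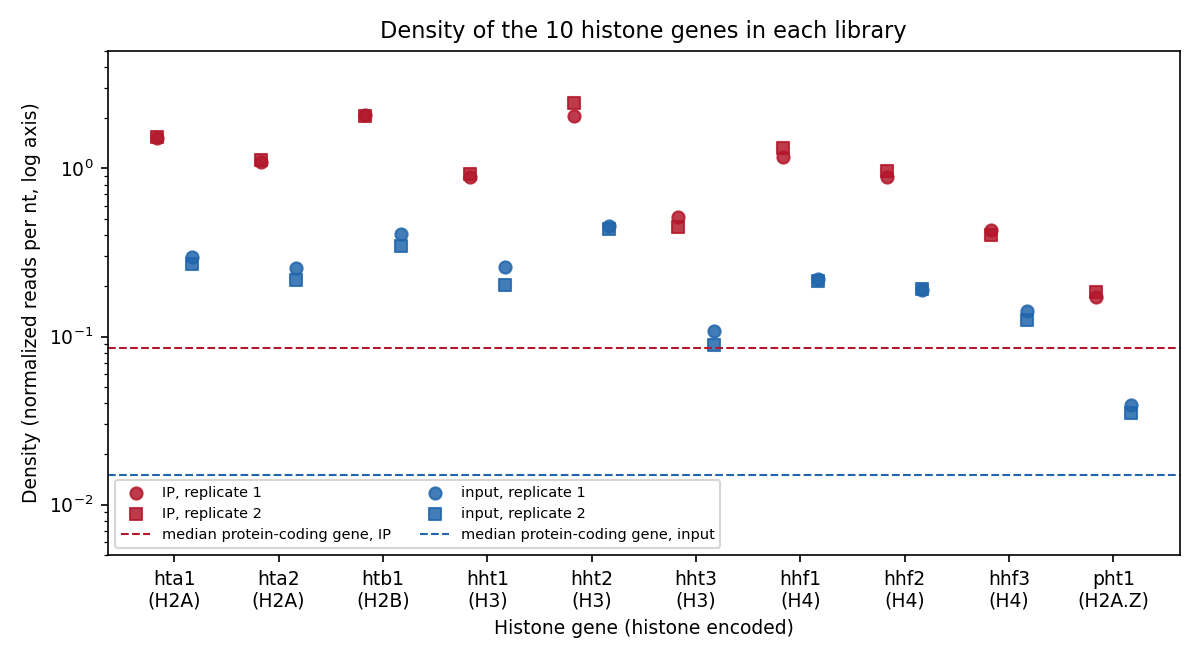
Each point is the density of a histone gene (normalized reads per nt, log axis) in a library, with the IP in red left of the input in blue, circles for replicate 1 and squares for replicate 2. Dashed lines mark the median protein-coding gene of each kind of library: all 10 genes lie above them in all 4 libraries, *hht2* and *htb1* the farthest and *pht1* the nearest (2.10-fold in the IP, 2.46-fold in the input).

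Summed by histone, the density of the 3 H3 genes was 3.45 and 3.81 in the IP, against 0.821 and 0.726 in the input. For the 3 H4 genes it was 2.49 and 2.68 in the IP, against 0.550 and 0.529 in the input, and for both H2A genes together it was 2.61 and 2.67 in the IP, against 0.554 and 0.486 in the input. *htb1* alone gave the H2B density of 2.08 and 2.04 in the IP, against 0.404 and 0.344 in the input. By density, H3 was therefore the highest sum and H2B the lowest of the core histones in each library, with H2A and H4 between them. In the IP, the H2B density reached 56.8% and that of H4 71.2% of the mean sum of H3. The place of H2B depends on division by length, since *htb1* is 1291 nt long. In reads not divided by length H4 was the lowest, with 1976 and 4496 in the IP, against 1365 and 1176 in the input. *htb1* had 2688 and 5549 in the IP, against 1640 and 1245 in the input. The H3, H4 and H2A genes hold windows with a near match in a copy and *htb1* holds none, and the part of these windows in the sums was not tested.

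The comparison of IP with input asks whether a histone gene had more or less nascent than total RNA relative to other genes. On the deposited scale, the median protein-coding gene had a log2 IP over input of 2.48, and 98.8% of protein-coding genes were called higher in the IP, all 10 histone genes among them. All ratios below are therefore given relative to the median protein-coding gene (limma, Benjamini-Hochberg adjustment over 8651 features, threshold 0.05). On this scale 2 of the 10 histone genes were called lower in the IP and 0 higher, where 21.4% of protein-coding genes were called lower and 10.4% higher, so the number of calls was near the background. The count of 2 lower calls was the same with edgeR (background 21.8%) and with DESeq2 (background 11.7%), and neither called a histone gene higher. With limma, 0 were higher at an unadjusted p under 0.05 either. The median over the histone genes was -0.19, beside 0 for all protein-coding genes by construction.

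The gene lower in the IP by the most was *hhf3*, an H4 gene, with relative log2 values of -0.79 and -0.90 in the replicate pairs, a mean of -0.85 ± 0.10 (SE; interval -1.07 to -0.63) and an adjusted p of 0.000166 (limma). It stood at percentile 6.15 of all genes tested. *hht1*, an H3 gene, was lower at -0.60 and -0.39, with a mean of -0.50 ± 0.09 (SE; interval -0.71 to -0.29), an adjusted p of 0.0036 (limma) and a percentile of 18.0. The call of *hht1* was lost in limma without a trend of the variance (adjusted p = 0.113), where *hhf3* was only just called (adjusted p = 0.0496). *hhf3* was also called lower in the other fits on all 4 libraries, apart from that on the deposited scale. These include edgeR and DESeq2, which used their own normalization. The other 8 genes were not called.

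Of those, *hta2* was nearest to the threshold, at -0.29 and -0.20 (mean -0.25 ± 0.09, adjusted p = 0.0707, limma). *pht1* had -0.24 and -0.19 (mean -0.22 ± 0.12, adjusted p = 0.204), *hhf2* -0.14 and -0.25 (mean -0.20 ± 0.11, adjusted p = 0.228) and *hht3* -0.13 and -0.24 (mean -0.19 ± 0.10, adjusted p = 0.218). *hht2* had -0.20 and -0.09 (mean -0.15 ± 0.12, adjusted p = 0.396). All 5 lay below the median gene in both replicates without passing the test. *hta1* (mean -0.04 ± 0.09, interval -0.24 to 0.16), *htb1* (mean -0.01 ± 0.09, interval -0.22 to 0.20) and *hhf1* (mean 0.04 ± 0.11, interval -0.20 to 0.28) were close to the median gene.

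**Figure D3:**
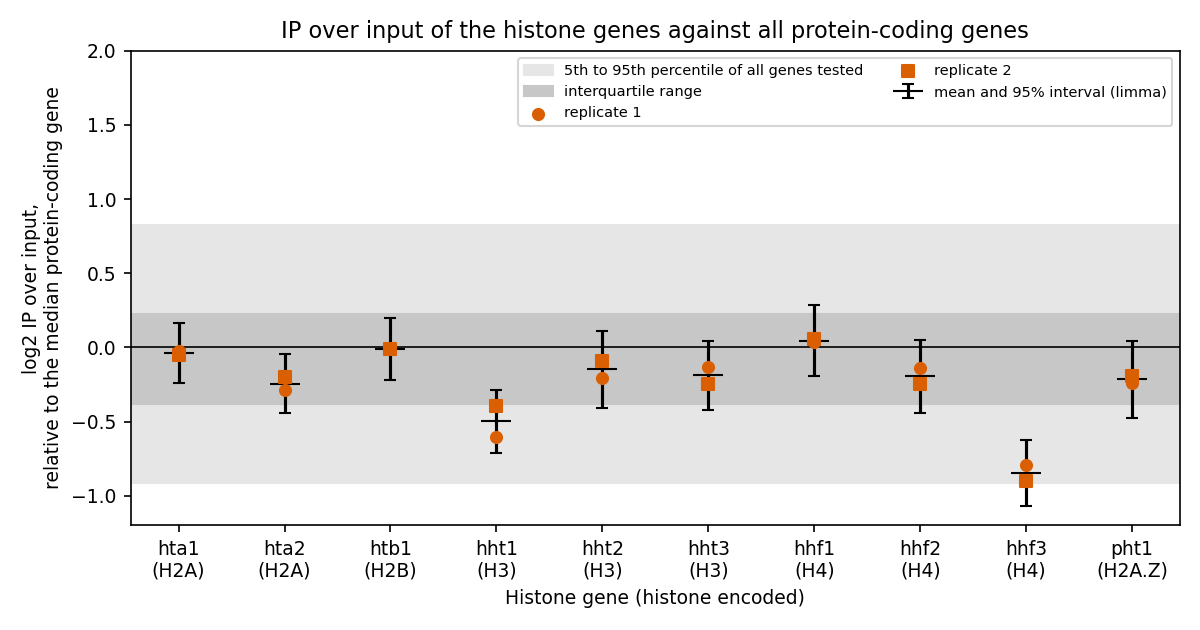
The y axis is the log2 IP over input relative to the median protein-coding gene, with the replicates as orange points and the limma mean with its 95% interval in black. Grey bands show where the 5043 protein-coding genes tested lie: 8 of the histone genes fall in the middle band and *hht1* (-0.50) and *hhf3* (-0.85) below it.

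The reads were then split into those within the coding sequence and those in the rest of the gene, that is the annotated 5′ and 3′ ends. For *hht1* the coding density was 0.445 and 0.401 in the IP, against 0.136 and 0.112 in the input, and the density of the rest was 1.29 and 1.39 in the IP, against 0.371 and 0.284 in the input. For *hhf1* the coding density was 0.545 and 0.728 in the IP, against 0.152 and 0.129 in the input, and the density of the rest was 1.59 and 1.72 in the IP, against 0.265 and 0.269 in the input. The coding part was thus the emptier part of both genes in all 4 libraries. The log2 of coding over rest was -1.53 and -1.79 for *hht1* in the IP, against -1.44 and -1.35 in the input. For *hhf1* it was -1.55 and -1.24 in the IP, against -0.80 and -1.06 in the input. Both genes were ranked among 1647 genes with a single coding segment and at least 100 nt outside it. Each of the 1647 had at least 10 reads in both parts in each library. *hht1* ranked 14 to 17 from the lowest and *hhf1* 16 to 23 from the lowest over the libraries.

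These 2 genes were at the end of a wider pattern. The median over the 1637 other such genes was 0.45 and 0.48 in the IP, against 0.82 and 0.65 in the input, whereas the median of the 10 histone genes was -0.47 and -0.53 in the IP, against -0.10 and -0.20 in the input. The part that windows with a near match in a copy have in this was not tested. In the genes with fully unique coding sequences, *htb1* had -0.23 and -0.36 in the IP, against 0.43 and 0.11 in the input, and *pht1* had 0.69 and 1.07 in the IP, against 0.77 and 1.08 in the input.

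*hht2* stood apart from its family. Its coding density was 2.00 and 2.58 in the IP, against 0.662 and 0.616 in the input, and the density of the rest was 2.10 and 2.27 in the IP, against 0.219 and 0.231 in the input. Coding and rest were thus nearly level in the IP, at -0.07 and 0.18 on the log2 scale, and far apart in the input, at 1.59 and 1.41. The log2 IP over input of the deposited values was 1.59 and 2.07 in the coding part and 3.26 and 3.30 in the rest, where the 1637 other genes had medians of 2.11 and 2.31 in the coding part and 2.58 and 2.56 in the rest. By the rest, *hht2* ranked 198 and 190 from the highest of 1647 genes. This gene was singled out after its values were seen, and no test was made of it.

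For the 2 genes called lower in the IP, the same split was read. *hhf3* had 1.37 and 1.62 in the coding part and 1.72 and 1.70 in the rest, below the medians of the other genes in both parts and both replicates. *hht1* had 1.71 and 1.84 in the coding part and 1.80 and 2.29 in the rest, also below those medians. In the rest, where every window is unique, *hhf3* ranked 127 and 128 from the lowest of 1647 genes and *hht1* 162 and 540.

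**Figure D4:**
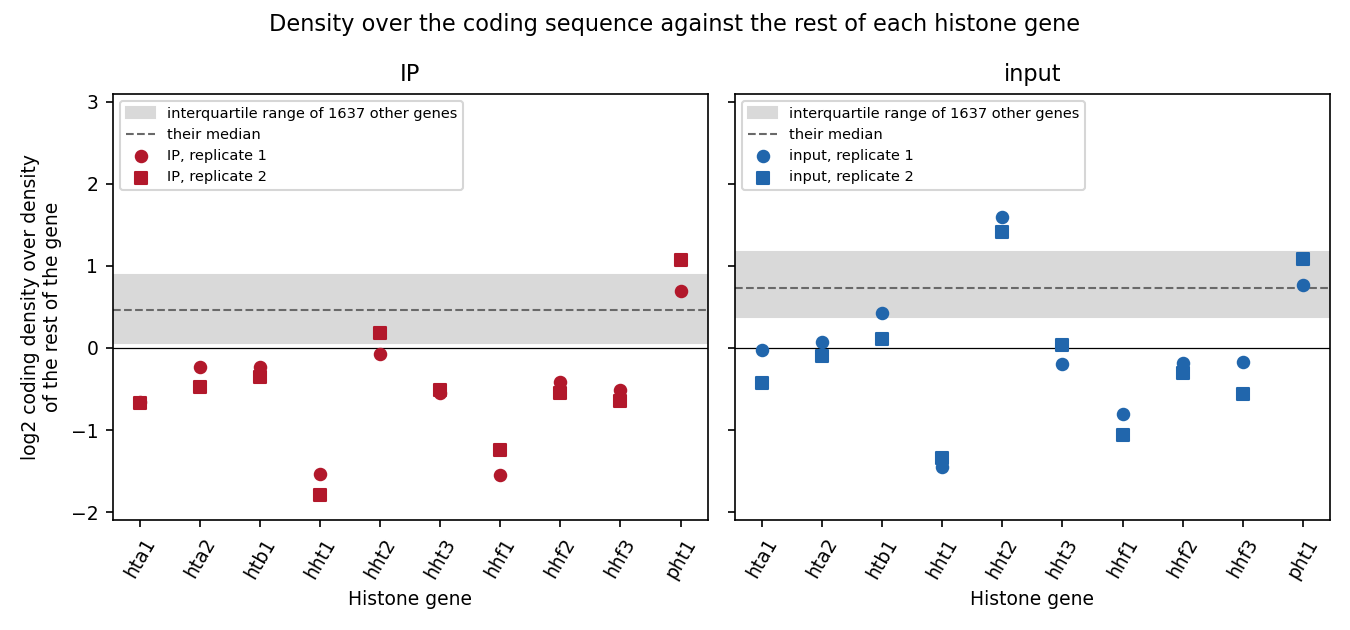
Points show the log2 of the density over the coding sequence to that over the rest of each histone gene, in the IP (left) and the input (right), circles for replicate 1 and squares for replicate 2. The grey band and dashed line give the quartiles and median of 1637 other genes, averaged over the libraries of a kind: *hht1* and *hhf1* lie lowest in both panels, and *hht2* lies below the dashed line in the IP and above the band in the input.

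Copies of the same histone were compared within each library, so that the scale of the library does not enter. With 2 libraries of a kind no exact permutation test can pass 0.05, so the ratios are given without a test. *hht2* over *hht1* had a log2 ratio of 1.20 and 1.40 in the IP, against 0.80 and 1.10 in the input (means 1.30 ± 0.14 and 0.95 ± 0.21, SD, n = 2). The exact conditional 95% intervals of the reads were 1.08 to 1.33 and 1.32 to 1.49 in the IP, and 0.66 to 0.94 and 0.94 to 1.26 in the input. *hht3* over *hht1* had -0.79 and -1.04 in the IP, against -1.26 and -1.19 in the input. *hht2* thus gave 59.3% and 64.0% of the H3 density in the IP, against 55.2% and 59.8% in the input, and *hht3* the smallest share, 14.9% and 11.8% against 13.2% and 12.2%.

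The H4 copies spanned a narrower range. *hhf2* over *hhf1* had -0.40 and -0.45 in the IP, against -0.22 and -0.15 in the input, where the interval of replicate 2 includes 0 (-0.34 to 0.04). *hhf3* over *hhf1* had -1.45 and -1.72 in the IP, against -0.63 and -0.76 in the input. The difference of the log2 ratio between IP and input was -0.83 and -0.95, the largest among the 5 pairs of copies when whole genes were read. This ranking does not hold for the part outside the coding sequence, for which the ratios are given below. *hhf3* accordingly gave 17.2% and 14.9% of the H4 density in the IP, against 25.9% and 23.7% in the input. *hta2* over *hta1* had -0.47 and -0.45 in the IP, against -0.21 and -0.30 in the input, so *hta1* gave 58.1% and 57.8% of the H2A density in the IP, against 53.6% and 55.3% in the input.

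Which stretch of the gene was read changed these ratios more than the replicate did. Outside the coding sequence, where all windows are unique, *hht2* over *hht1* was 0.71 and 0.71 in the IP, and in the input it turned to -0.76 and -0.30. Within the coding sequence it was 2.16 and 2.68 in the IP, against 2.28 and 2.46 in the input. The order of the H3 genes in the input therefore depends on the part: *hht2* was above *hht1* over the whole gene and over the coding part, and below it outside the coding part. In the IP *hht2* was the highest H3 gene in every part. *hht3* over *hht1* was -1.09 and -1.40 outside the coding sequence in the IP, against -1.69 and -1.70 in the input, and -0.10 and -0.13 within it in the IP, against -0.44 and -0.31 in the input. *hht3* was thus below *hht1* in each part and library, but by little within the coding sequence.

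For *hhf2* and *hhf1* the order turned as well, though by little in IP replicate 2. Their coding reads were 229 and 490 for *hhf2* in the IP, where *hhf1* had 170 and 479. In the input they were 170 and 146 for *hhf2* and 149 and 113 for *hhf1*. No counting intervals were computed for the parts of a gene. *hhf2* over *hhf1* was -0.70 and -0.66 outside the coding sequence in the IP, against -0.43 and -0.39 in the input, and 0.43 and 0.03 within it in the IP, against 0.19 and 0.37 in the input. *hhf3* over *hhf1* stayed below 0 in every part, at -1.70 and -1.86 outside the coding sequence in the IP, against -0.83 and -0.89 in the input. For H2A, *hta2* over *hta1* was -0.59 and -0.49 outside the coding sequence in the IP, against -0.26 and -0.41 in the input, and -0.17 and -0.30 within it in the IP, against -0.15 and -0.08 in the input. The comparison outside the coding sequence was chosen after the data were seen.

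**Figure D5:**
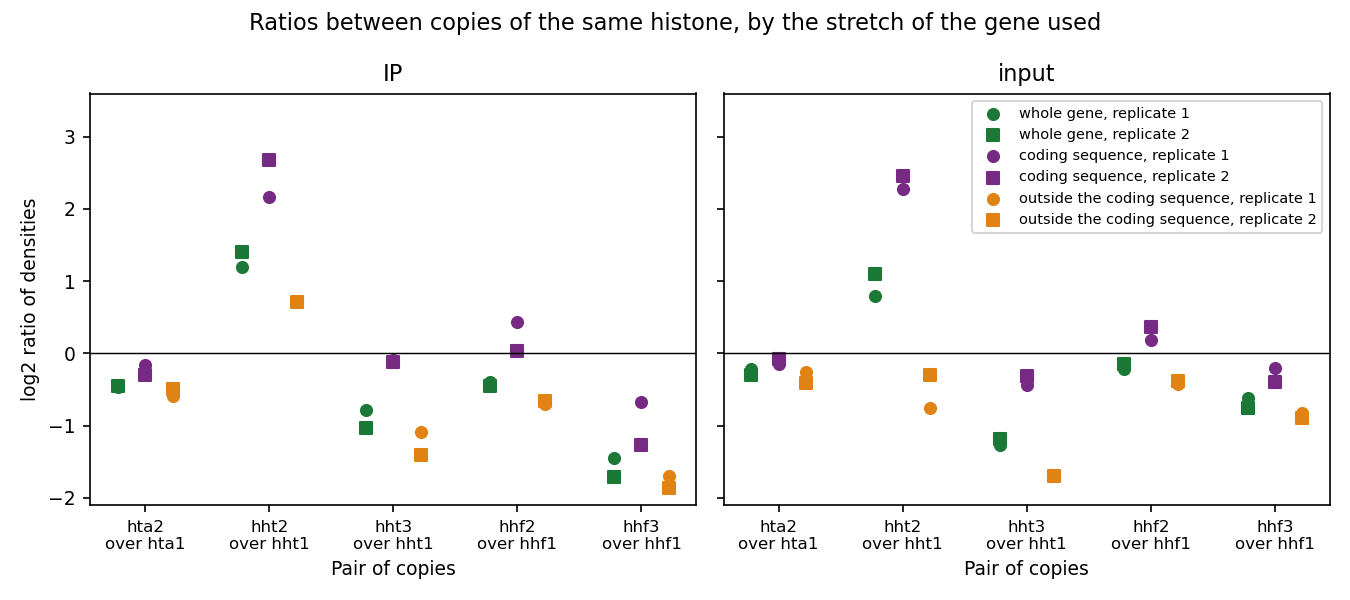
Points are log2 ratios of density between copies of the same histone in each replicate, in the IP (left) and the input (right), computed over the whole gene (green), the coding sequence (purple) or the rest of the gene (orange). The purple and orange points of *hht2* over *hht1* lie far apart, on both sides of 0 in the input, while *hhf3* over *hhf1* is below 0 in every case.

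The divergent pairs were read as pairs too, by the density of the whole gene. *htb1* over *hta1* had a log2 ratio of 0.46 and 0.40 in the IP, against 0.44 and 0.36 in the input, so this pair had nearly the same ratio in both kinds of library. *hht2* over *hhf2* had 1.20 and 1.34 in the IP, against 1.27 and 1.18 in the input. Outside the coding sequence, *hht2* had densities of 2.10 and 2.27 in the IP, where *hhf2* had 0.978 and 1.09. In the input these densities lay close together, at 0.219 and 0.231 for *hht2* and 0.197 and 0.206 for *hhf2*. The likeness of IP and input in this pair thus held for the whole genes and not outside the coding sequence. *hht1* over *hhf1* had -0.39 and -0.51 in the IP, against 0.25 and -0.07 in the input, and *hhf3* over *hht3* had -0.27 and -0.17 in the IP, against 0.39 and 0.49 in the input. In the last pair the H3 gene was the higher partner in the IP and the H4 gene the higher in the input, in both replicates.

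The annotated non-coding features antisense to histone genes had densities far below those of the histone genes they overlap. Antisense reads outside annotated features were not examined, and the antisense strands of other genes were not measured for comparison. XUTs are antisense or intergenic RNAs that accumulate without Exo2, and 1086 of the 5129 genes (21.2%) have a XUT on the opposite strand over 50 nt or more. Among the histone genes 1 of 10 has, *hht3*, whose 3′ part lies opposite *XUT1200* (216 nt, chrII:3528854-3529069). *XUT1200* had 5 and 13 reads in the IP, against 0 and 1 in the input, and the density of *hht3* was 0.515 and 0.449 in the IP where that of *XUT1200* was 0.0231 and 0.0285. A count of 0 allows up to 3 reads. *XUT1200* ranked 254 of 1638 XUTs by mean IP density. *XUT0878* shares only 15 nt with the 3′ end of *hta1* and had 4 and 13 reads in the IP, against 3 and 1 in the input. It lies within the non-coding RNA gene *hta1-antisense-1* on the same strand, so its reads may be counted for both.

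Other features lie opposite or beside histone genes. *hta1-antisense-1* covers the whole of *hta1* and had 36 and 62 reads in the IP, against 36 and 40 in the input. Relative to the median protein-coding gene it was lower in the IP, at -0.75 and -1.55 (mean -1.15 ± 0.27, adjusted p = 0.0108, limma), while *hta1* itself was close to 0. *hhf3-antisense-1* covers the whole of *hhf3* and had 2 and 7 reads in the IP, against 2 and 0 in the input, at densities of 0.0014 and 0.0024 in the IP. This antisense strand of *hhf3* was the emptiest of those annotated.

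*novelncTU_186*, opposite 615 nt of *hht3*, had 8 and 20 reads in the IP, against 4 and 7 in the input. It overlaps *XUT1200* on the same strand, so reads in the shared part may be counted for both. Opposite *htb1*, *novelncTU_458* (486 nt) had 9 and 10 reads in the IP, against 7 and 6 in the input, and *novelncTU_459* (209 nt) had 4 and 13 reads in the IP, against 4 and 3 in the input. None of the 3 units was called. The protein-coding gene *sec5*, of the exocyst, ends within *htb1* and shares 258 nt with it, and *rav1* shares 46 nt with the 3′ end of *hht3*. In all, 4 of the 10 genes (*hta1*, *htb1*, *hht3* and *hhf3*) have an annotated antisense non-coding feature over 50 nt or more. The share of all protein-coding genes with such a feature was not computed, so this count cannot be called high or low. On the same strand, *SPNCRNA.1432* overlaps the 3′ end of *hhf2* by 79 nt and had 148 and 352 reads in the IP, against 61 and 42 in the input. It was higher in the IP than the median gene (mean 0.70 ± 0.15, adjusted p = 0.00784, limma), and reads in the shared 79 nt may be counted for both.

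Genes that regulate histone transcription or handle histone proteins were read from a list of 24, of which 23 are in the table and were tested. In the IP relative to the median gene 6 of 23 were called lower and 1 higher, beside backgrounds of 21.4% and 10.4%, and the median of the list was -0.06. The lower ones were *spt6* (-0.88 ± 0.09, adjusted p = 7.8e-05), encoding a histone chaperone of transcription elongation, *nap1* (-0.81 ± 0.09, 0.000116) and *nap2* (-0.48 ± 0.12, 0.0141), encoding nucleosome assembly proteins, and *spt16* (-0.75 ± 0.11, 0.000573), encoding a FACT subunit. *pcf1* (-0.65 ± 0.19, 0.0297), of chromatin assembly factor 1, and *hip3* (-0.59 ± 0.09, 0.00124), of the HIRA complex, were lower as well. *hip4*, also of the HIRA complex, was the higher one (0.61 ± 0.16, 0.0192; adjusted p by limma and SE throughout). *ams2*, encoding the factor bound to the AACCCT element, had -0.50 and -0.06 (mean -0.28 ± 0.22, adjusted p = 0.389), and *teb1*, encoding another AACCCT-binding factor, had 0.27 and 0.31 (mean 0.29 ± 0.14, adjusted p = 0.153), so neither was called.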

How the data were processed

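Yeast NET-Seq libraries (2 IP, 2 input) were labelled by genotype, sample type and biological replicate. The authors removed the 5′ adapter from the 50-nt reads and mapped them to ASM294v2 with Bowtie, uniquely and with up to 2 mismatches. The deposited values are read counts per feature for IP replicate 1, and for the other libraries a signal, the reads multiplied by a factor per library, with a density (signal per nt). The counting tool and the basis of the factor are not given in the sources used here. Whole reads were recovered for 100% of values (tolerance 0.01). CDS entries were left out of the tests, since the gene entries contain them.

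IP and input were compared with limma 3.58.1 (R 4.3.3) on log2(value + 0.318), centred on the median protein-coding gene, over features above 0 in 2 or more libraries. edgeR 4.0.16 and DESeq2 1.42.0 on the recovered reads were alternatives, each with its own normalization and not centred on the median gene. edgeR called 1098 features as higher in the IP and 1364 as lower. The fit was tested on simulated data. IP and input of a replicate come from the same cells, and their deviations had r = 0.15 over 4644 genes. The limma p-values combine the spread of 2 replicates with a variance trend pooled over the features tested. They therefore do not measure the spread of a gene's own replicates alone. The replicate ratios of *hhf1*, for example, had an SD of 0.013 where the SE of the fit was 0.107.

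Sequences and windows came from the RefSeq genome, whose chromosome I has the table's length, and 5113 of 5119 coding sequences read through from ATG to stop. Named genes are the histone genes, all features overlapping them and the regulator list. Members and lists were chosen with earlier results of these data known. Copy intervals are Clopper-Pearson and cover counting error only. Pooled columns were checked to equal the sum of the replicates and not used further. The upstream element of *hta1* and *htb1* is not reported here.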

Additional observations from a re-analysis of the deposited data

How the results depend on the processing

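On the deposited scale, with no centring, the features called were 7926 higher and 124 lower in the IP, and 10 histone genes were called higher and 0 lower. There the log2 ratios were 1.63 for *hhf3*, 1.98 for *hht1*, 2.23 for *hta2*, 2.26 for *pht1*, 2.28 for *hhf2*, 2.29 for *hht3*, 2.33 for *hht2*, 2.44 for *hta1* and 2.46 for *htb1*, by the construction of the scale, whose median protein-coding gene is at 2.48. On the centred scale 829 features were higher and 1420 lower. Limma without a trend called 221 higher and 426 lower and kept 1 of the 2 histone genes, *hhf3* (adjusted p = 0.0496). DESeq2 called 416 higher and 861 lower, and a pseudocount 10 times larger called 3845 lower. The cause of these shifts was not tested.

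Signs turned only near 0: with the larger pseudocount *hta1* was at 0.0532 and *htb1* at 0.0848, with edgeR *htb1* was at 0.0104 and with DESeq2 at 0.0199, and *hhf1* was below 0 without IP replicate 2 and without input replicate 1 (range -0.0550 to 0.144 over the 4 libraries left out). None of these was called. With at least 10 reads required, *hta2* passed the threshold (adjusted p = 0.0494, limma). Leaving out 1 library at a time gave 493 to 1004 features higher and 1276 to 1474 lower, with the lowest count of higher calls without IP replicate 1, and 2 histone genes lower and 0 higher each time. The replicate block gave 1002 higher and 1661 lower and the same calls for the 10 histone genes.

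Ratios between copies moved most with the stretch read. Over the coding sequence only, the mean IP and input ratios were 2.42 and 2.37 for *hht2* over *hht1*, -0.11 and -0.37 for *hht3* over *hht1*, 0.23 and 0.28 for *hhf2* over *hhf1*, -0.97 and -0.30 for *hhf3* over *hhf1*, and -0.23 and -0.11 for *hta2* over *hta1*. Outside the coding sequence, an alternative chosen after seeing the data, they were 0.71 and -0.53, -1.25 and -1.69, -0.68 and -0.41, -1.78 and -0.86, and -0.54 and -0.33 for these pairs. Per position unique in 25-nt windows, *hht2* over *hht1* was 1.13 in the IP, *hht3* over *hht1* -1.30 in the input, and *hhf2* over *hhf1* -0.61 in the IP and -0.37 in the input. Per position unique in 50-nt windows with up to 2 mismatches, also chosen after seeing the data, *hht2* over *hht1* was 1.00 in the IP and 0.65 in the input, *hht3* over *hht1* -1.32 in the input and *hhf2* over *hhf1* -0.38 in the IP. As reads per gene, not divided by length, *hht2* over *hht1* was 1.14 in the IP, *hhf2* over *hhf1* -0.28 in the IP and -0.0377 in the input, and *hta2* over *hta1* -0.63 in the IP and -0.43 in the input. Per position unique in 50-nt windows with no mismatch, the H3 and H2A ratios could not move, because all windows of these genes are unique at this setting. The H4 ratios, with few positions lost, stayed within their spread. How these ratios depend on the mapping was not tested beyond these values.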
